A study of Mus musculus with 45 samples.

Results

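Rspondin 3 (Rspo3) was given at 100 or at 5 ng/ml to organoids grown from the small intestine of Lgr5 wild-type (WT) mouse embryos, and the RNA of both conditions was compared in each culture. The comparison rests on 6 of the 45 libraries of the series, those of the cultures WT10, WT5 and WT30 at either dose, and covers all genes of the organoid table. Organoids are epithelial cultures that form crypt-like buds with stem, Paneth and other differentiated cells. Each culture came from 1 E17.5 embryo of the Lgr5-DTReGFP line and was used at passage 4. WT embryos of this line carry no copy of the cassette that disrupts Lgr5 in the knockout (KO) embryos. All cultures received EGF and the BMP antagonist noggin in the medium, so that the Rspo3 dose was the only labelled difference within a culture. Survival is not labelled. In the growth assay of the paper, Rspo3 and Rspo1 kept all organoids alive at 100 ng/ml but not at lower tested doses. With Rspo2, 5 ng/ml was already enough. The cultures at 5 ng/ml of Rspo3 may thus have lost organoids, and the share of this loss in the differences below was not tested. The same WT cultures were also given Rspo1 or Rspo2 at both doses, and Lgr5 KO cultures (KO7 and KO2) were given the same ligands. Groups below are named by genotype, ligand and dose.

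Rspondins are secreted proteins that bind the receptors Lgr4, Lgr5 and Lgr6. The bound complex takes the membrane ubiquitin ligases Rnf43 and Znrf3 away from the cell surface. These ligases otherwise remove Frizzled receptors, so that a cell with more Rspondin responds more strongly to a given amount of Wnt. In the intestinal epithelium Wnt signalling maintains the stem cells of the crypt base, their division and the Paneth cells beside them, and it is low on the villus, where absorptive enterocytes mature.

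Total RNA was sequenced after removal of ribosomal RNA, and the authors deposited the reads of each gene as CPM, the share of a library's reads on a fixed scale. The 6 Rspo3 libraries held between 19916749 and 30805914 reads on genes, recovered from the spacing of the lowest CPM values, so that 0.05 CPM is about 1 read. Genes were tested with limma on log2(CPM + 1) in a fit of the 18 WT libraries with culture as a block, and a gene was called at a Benjamini-Hochberg adjusted p under 0.05. Every adjusted p given here comes from this limma fit, or from a limma fit with the changed setting or set of libraries named in the text. Differences are those of log2(CPM + 1), 100 minus 5 ng/ml, and understate the change of genes at a few CPM. Markers of other tissues were low. Summed CPM was 13 to 28.3 for 8 endothelial and 1.75 to 5.35 for 7 erythroid markers. For 10 neural and glial markers it was 16.2 to 25.35 at 100 ng/ml and 22.1 to 44.5 at 5 ng/ml. The summed CPM of 17 mesenchymal markers was 12.6 to 18.8, with Col3a1, Dcn and Lum at 0 in all 6 libraries, against 5728 to 7751 for 9 epithelial markers. In the sum of 14 immune markers, 18.2 to 20.8 CPM at 100 ng/ml and 29.6 to 56.1 at 5 ng/ml, Csf1r made up most of the signal while the pan-leukocyte gene Ptprc did not exceed 0.2 CPM.

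The dose of Rspo3 was the main axis of variation. The first principal component held 81.6% of the variance among the 6 libraries, and the correlation of log2(CPM + 1) across genes was 0.985 to 0.993 between libraries of the same dose and 0.932 to 0.947 between doses. Of 18256 genes tested, 8377 were higher at 100 ng/ml (45.9%) and 3138 lower (17.2%). At least a 2-fold difference was reached by 2294 of the higher genes (12.6%) and 829 of the lower ones (4.54%), and at least 16-fold by 3 and 7. All 3 libraries at 100 ng/ml lay above all 3 at 5 ng/ml for 47.1% of the tested genes and below them for 17.7%. Of all tested genes, 14884 (81.5%) moved in the same direction in all 3 cultures, and of the 11515 called genes 11438 did. The calls rest on the same libraries, so the agreement among called genes is no separate support. The split between higher and lower calls depended on scaling. The median difference over all tested genes was 0.26, and after scaling by the median ratio between libraries it was 0.06, with 5900 genes higher and 4990 lower. The share of calls that were higher thus went from 72.7% to 54.2%. The lists below are read against the median of 0.26, and their counts against the 45.9% higher and 17.2% lower of all tested genes. In bulk RNA, fewer cells of a type and less RNA of that type per cell cannot be told apart.

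**Figure D1:**
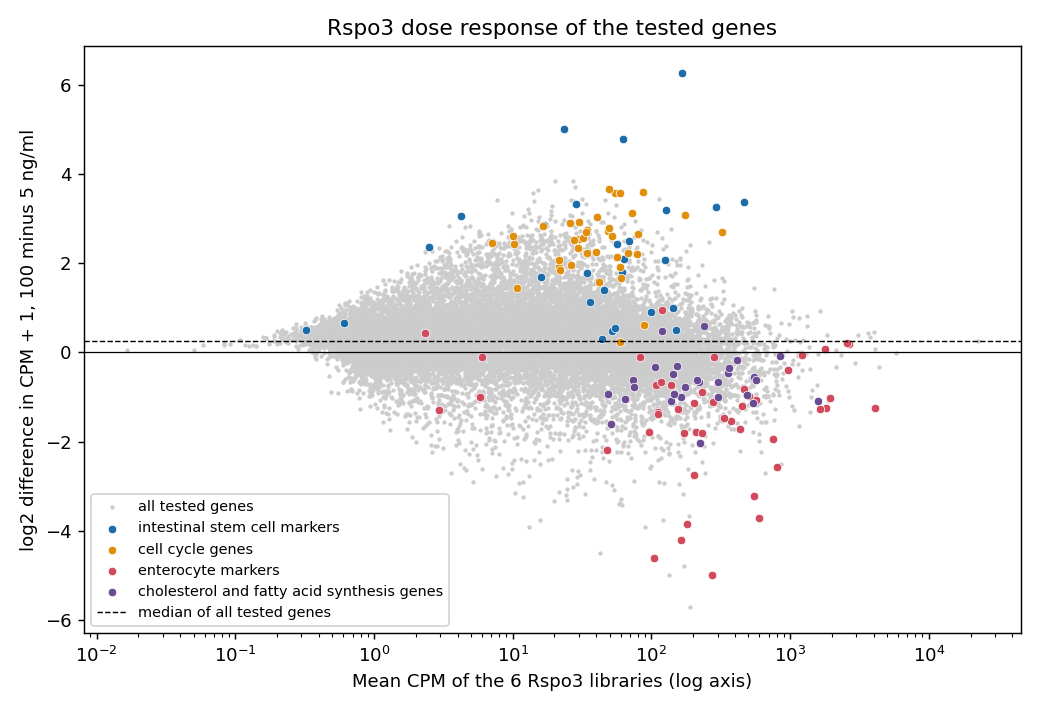
Difference between 100 and 5 ng/ml of Rspo3 (log2 of CPM + 1, y axis) against the mean CPM of the 6 libraries (x axis, log scale) for the 18256 tested genes, with 4 gene lists in colour. Nearly all stem cell and cell cycle genes lie above the dashed median of 0.26, most enterocyte and lipid synthesis genes lie below 0, and Olfm4 is the highest point at 6.27.

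The transcripts of the receptors and ligases themselves differed in their response. Lgr5 rose most. It was at 50.65, 48.85 and 39.35 CPM in WT10, WT5 and WT30 at 100 ng/ml and at 0.35, 0.6 and 0.45 CPM at 5 ng/ml. The 3 cultures thus lay close together at either dose with a wide gap between the doses (Lgr5, ENSMUSG00000020140, GRCm38 chromosome 10, 115450311 to 115587780, minus strand; log2 difference 5.01 ± 0.33 (SE), adjusted p = 3.54e-09). The genes of the 2 ligases that Lgr receptors recruit rose as well, Rnf43 from 23.6 ± 1.96 to 104 ± 15.8 CPM (SD, n = 3; log2 difference 2.09) and Znrf3 from 14.95 ± 0.95 to 53.9 ± 1.98 CPM (1.78). Lgr4, the broadly expressed receptor of the family, went from 205, 216 and 218 CPM to 267, 265 and 256 CPM, a difference of 0.30 (adjusted p = 0.00749) that was 0.04 after median-ratio scaling (adjusted p = 0.646), close to the shift of all genes. Lgr6 did not exceed 0.1 CPM in any of the 6 libraries. Rspo3 itself was at 0 in the 3 libraries at 100 ng/ml and at 0.05 to 0.1 CPM in those at 5 ng/ml, at or near the level of single reads. Among heparan sulphate proteoglycans of the cell surface, Sdc4 rose by 0.64 on the log2 scale, and Gpc3 fell by 1.05, from 79.3, 58.05 and 185 CPM to 37.45, 29.1 and 85.05, lower in each culture although the groups overlapped. In all, 5 of the 8 tested genes of this list rose and 1 fell, with a median difference of 0.47.

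**Figure D2:**
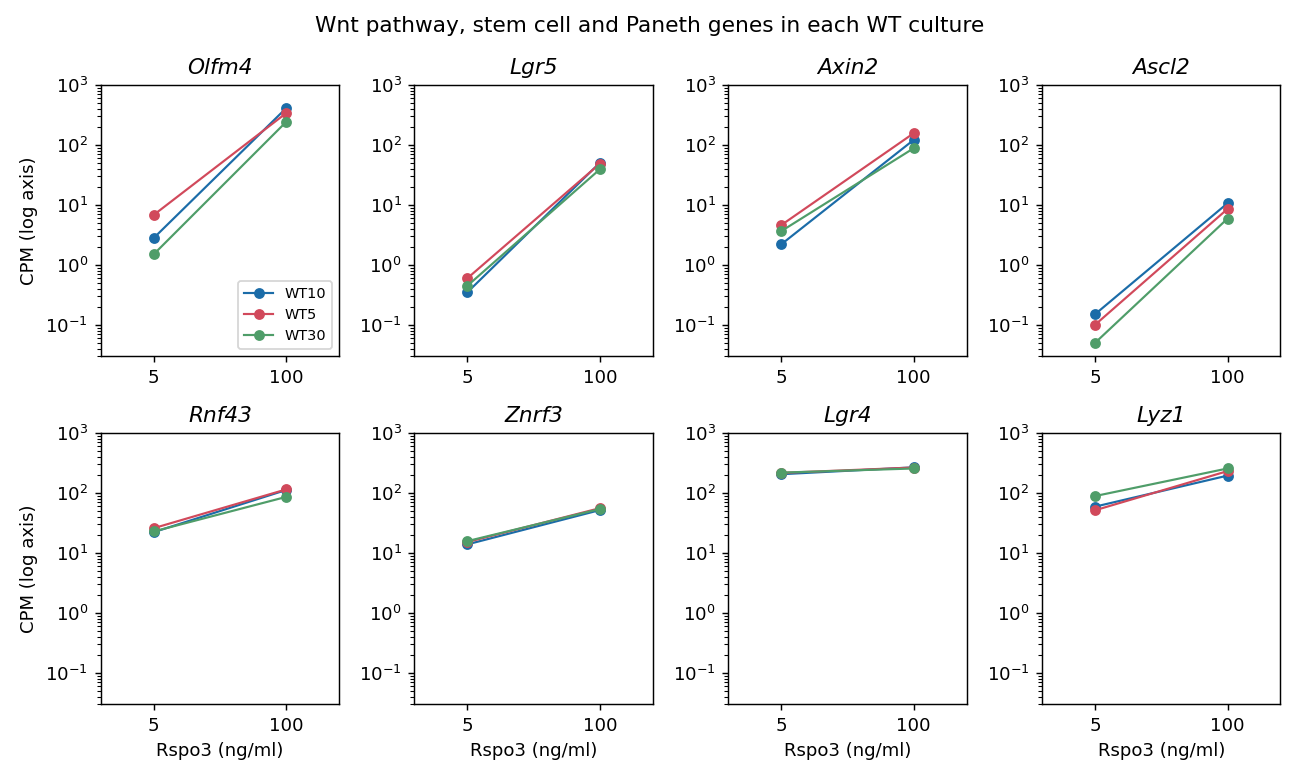
CPM (log axis) of 8 genes at 5 and 100 ng/ml of Rspo3 (x axis), 1 coloured line per WT culture. Olfm4, Lgr5, Axin2 and Ascl2 rise steeply in each culture, Rnf43, Znrf3 and Lyz1 less so, and Lgr4 stays between 205 and 267 CPM.

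Genes that Wnt signalling induces rose in most cases. Of 25 tested Wnt target and feedback genes, 17 rose, each of them at least 2-fold, 2 fell and 6 did not pass the test, and the median difference was 1.83 (1.60 after scaling). Axin2, a feedback inhibitor that is transcribed wherever the pathway is active, was at 121, 157 and 88.15 CPM at 100 ng/ml and at 2.2, 4.6 and 3.65 CPM at 5 ng/ml. WT30 was the lowest of the 3 cultures at the high dose, still far above every library at the low dose (Axin2, ENSMUSG00000000142, chromosome 11, 108920349 to 108950783, plus strand; log2 difference 4.78 ± 0.35 (SE), adjusted p = 9.78e-09). Ascl2, the transcription factor that defines crypt base stem cells, was at 5.9 to 10.65 CPM against 0.05 to 0.15 CPM, values of 1 to a few reads at the low dose (3.06, adjusted p = 1.21e-07). Etv4, an ETS transcription factor, rose by 2.99 on the same scale. Myc, Sox9, Cd44, Ephb2, Ephb3 and Ccnd1, well-known Wnt targets of the crypt that were chosen after the values were seen, rose by 1.66 to 2.63. The exceptions were secreted Wnt inhibitors. Sfrp5 fell from 2.45, 3.8 and 1.7 CPM to 1.2, 2.05 and 0.5, and Dkk4 fell from 0.85 to 1.3 CPM to 0.25 to 0.35 CPM. Both are near the lower limit of the tested range. The call of Sfrp5 was lost in the fit of all 30 organoid libraries (adjusted p = 0.28) and without the block (adjusted p = 0.166). Notum, Lef1, Dkk1, Dkk2 and Wif1 stayed under 1 CPM in all 6 libraries and were not tested.

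The promoters of named genes of this list were searched for the letters CTTTGAA and CTTTGAT, forms of the site that Tcf factors bind, on both strands of the 250 bases before the RefSeq start. A window was at hand for 3 of the 6 genes (Ascl2, Axin2 and Sfrp5, RefSeq, GRCm38.p6) and not for Dkk4, Etv4 and Lgr5. Neither motif occurred in these 3 windows, while 7.48% of 32851 windows of the same length held at least 1 of them (CTTTGAA 4.46%, CTTTGAT 3.21%). The windows of the 2 genes that rose are shown 5′ to 3′ on the strand of the gene, in lower case since there was no match to mark. They are chr11:108920099-108920348 (plus strand) for Axin2 and chr7:142969265-142969514 (minus strand) for Ascl2.
Axin2: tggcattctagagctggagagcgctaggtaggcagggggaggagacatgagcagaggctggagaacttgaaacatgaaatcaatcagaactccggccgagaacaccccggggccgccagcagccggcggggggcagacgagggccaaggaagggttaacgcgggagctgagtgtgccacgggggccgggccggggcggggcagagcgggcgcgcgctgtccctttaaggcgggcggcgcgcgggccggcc
Ascl2: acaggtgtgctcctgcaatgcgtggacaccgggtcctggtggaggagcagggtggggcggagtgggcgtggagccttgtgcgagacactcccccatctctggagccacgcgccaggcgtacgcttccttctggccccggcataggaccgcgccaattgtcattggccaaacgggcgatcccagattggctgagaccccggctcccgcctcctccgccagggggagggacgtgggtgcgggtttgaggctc
Absence of these letters concerns this window alone.

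Among Wnt ligands, receptors and transducers, 12 of 24 tested genes rose and 5 fell, with a median of 0.26 that equals the median of all genes. The shares of 50% and 20.8% were also close to those of all tested genes (45.9% and 17.2%). Frizzled receptors were found on both sides. Fzd2 went from 1.2, 1.25 and 1.3 CPM to 9, 12.25 and 10.8 CPM (2.37), Fzd6 rose by 1.32, and Wls, the carrier that brings Wnt proteins to the cell surface, rose by 1.73. Wnt3, the ligand that Paneth cells supply, was at 1 to 1.4 CPM at 5 ng/ml and at 5.55 to 7.15 CPM at 100 ng/ml (1.68). Wnt4 went the other way, from 15.1, 7.7 and 10.1 CPM to 2.9, 1.55 and 1.2 CPM (-2.05, adjusted p = 5.57e-08). Fzd4, Fzd5 and Ctnnb1 (beta-catenin) fell by 0.25 to 0.54. The calls of Fzd5 and Ctnnb1 depended on the cultures used. That of Ctnnb1 was lost without WT5 (adjusted p = 0.129) or WT30 (adjusted p = 0.155), and that of Fzd5 without any 1 culture (adjusted p = 0.0739, 0.0523 and 0.0674 without WT10, WT5 and WT30).

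Markers of intestinal stem cells (ISC) rose almost throughout, 26 of 27 tested genes, 20 of them at least 2-fold, with none lower and a median of 2.08 (1.82 after scaling). Olfm4, a secreted glycoprotein of crypt base stem cells, had the largest rise of all named genes. It was at 410.5, 339 and 242 CPM in WT10, WT5 and WT30 at 100 ng/ml and at 2.8, 6.8 and 1.5 CPM at 5 ng/ml. The order of the cultures differed between the doses, but the lowest value at 100 ng/ml was far above the highest at 5 ng/ml (Olfm4, ENSMUSG00000022026, chromosome 14, 79984081 to 80023139, plus strand; log2 difference 6.27 ± 0.39 (SE), 77.2-fold on the CPM + 1 scale, adjusted p = 1.69e-09). Slc12a2, a sodium, potassium and chloride cotransporter enriched in the crypt, went from 58.85, 115 and 77 CPM to 795, 964 and 788 CPM (3.38, adjusted p = 2.61e-09). Genes that have been used to mark reserve or slowly cycling cells rose less: Lrig1 by 1.01, Bmi1 by 1.13 and Hopx by 0.55, all chosen after the values were seen. The groups overlapped for Hopx. Gkn3, at 0.45 to 0.7 against 0 to 0.2 CPM, was the member that did not pass the test. The summed CPM of the list was 3097 to 4101 at 100 ng/ml and 723 to 902 at 5 ng/ml, 4.63 times higher.

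Cell cycle genes had the largest median of the 20 lists, 2.54 (2.30 after scaling), with 39 of 40 tested genes higher and 38 of them at least 2-fold. For all 40 genes the 3 libraries at 100 ng/ml lay above the 3 at 5 ng/ml. The largest rises were those of Mcm3, Mcm5 and Mcm2, subunits of the helicase that opens DNA for replication, and of Uhrf1, which keeps DNA methylation through replication. Mcm3 was at 98.8, 91.15 and 85.6 CPM against 3.8, 8.55 and 7.7 CPM (3.66, adjusted p = 6.91e-10), and Uhrf1 at 173, 161 and 150 CPM against 8.2, 17 and 13.8 CPM (3.59). For Mcm3 and Uhrf1, WT10 was the lowest at 5 ng/ml and the highest at 100 ng/ml. Mki67, which marks dividing cells and was chosen after the values were seen, was at 549 to 570 CPM at 100 ng/ml and at 64.75, 123 and 77.3 CPM at 5 ng/ml. Gins2, at 59.2 to 68.6 CPM at 100 ng/ml and 49.8 to 58.25 CPM at 5 ng/ml, was the member not called (0.23, adjusted p = 0.0621). Dtl and Timeless, which act at replication forks, were also among the 12 largest rises of all genes, with differences of 3.70 and 3.85. The summed CPM of the list reached 3455 to 3587 at 100 ng/ml, a range narrower than the 524 to 807 at 5 ng/ml relative to its level.

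**Figure D3:**
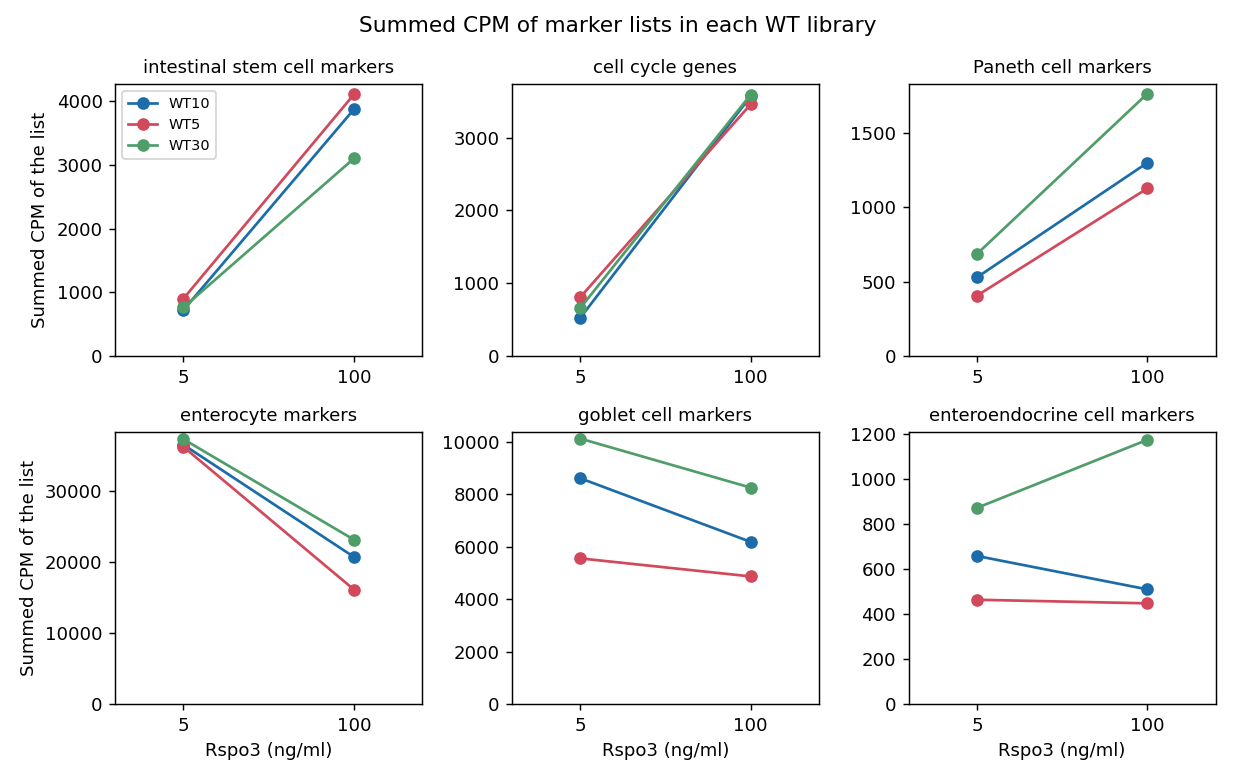
Summed CPM (y axis, from 0) of 6 marker lists at 5 and 100 ng/ml of Rspo3, 1 coloured line per WT culture. Stem cell, cell cycle and Paneth sums rise and the enterocyte sum falls in each culture, the goblet sum is lower at 100 ng/ml in each culture, and the enteroendocrine sum rises in WT30 alone.

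Paneth cells, the secretory cells of the crypt base that store lysozyme and defensins, had 26 of 29 tested markers higher at 100 ng/ml, 1 lower and a median of 1.2. Lyz1, lysozyme, was at 195, 231 and 256 CPM against 59.05, 51.4 and 88.7 CPM (1.79 ± 0.23 (SE), adjusted p = 5.03e-06). Itln1, an intelectin that binds microbial sugars, had the largest rise of the list, from 15.45, 22 and 17.35 CPM to 209, 157 and 264 CPM (3.44, adjusted p = 2.57e-09). Habp2 went from 0.9 to 1.9 CPM to 10.2 to 25.4 CPM (2.84). The alpha-defensins Defa30 and Defa35 rose by 2.52 and 2.27. Values of single defensin genes are uncertain because their sequences are nearly identical and counting can split or drop their reads. Pnliprp2, a pancreatic lipase-related gene placed in this list, was the member that fell, from 25.8 to 48.15 CPM to 8 to 16.05 CPM (-1.44). The summed CPM was 1126 to 1762 at 100 ng/ml and 406 to 686 at 5 ng/ml.

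The other secretory lineages showed no such common direction. Among goblet cell markers, 7 of 19 tested genes rose, 4 fell and 8 did not pass the test, with a median of 0.14 that became -0.09 after scaling. The transcription factors Creb3l1, Spdef and Foxa3 rose by 1.42, 1.13 and 0.97, and the glycosyltransferase Galnt12 by 0.96. The 4 that fell were the lectin Zg16 (by 1.32), the secreted metalloprotease Clca1 (by 1.27), the guanylin precursor Guca2a (by 1.04) and the mucin Muc13 (by 0.52). Zg16 was at 89.3, 70.5 and 119 CPM at 100 ng/ml against 243, 153 and 322 CPM, without overlap. Muc2, the main gel-forming mucin, at 700 to 1419 against 800 to 1528 CPM, and Tff3, at 209 to 278 against 180 to 268 CPM, did not pass the test.

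Of 29 tested enteroendocrine markers 12 rose, 4 fell and 13 did not pass the test, with a median of 0.26. The shares of 41.4% and 13.8% were close to the 45.9% and 17.2% of all tested genes. Neurog3, the factor that starts endocrine differentiation, was at 7.75, 6 and 9.8 CPM at 100 ng/ml and at 1.05, 0.95 and 1.5 CPM at 5 ng/ml (2.02, adjusted p = 4.65e-07). Neurod1 and Insm1, which act after it, rose by 1.02 and 0.92, and Tac1, the precursor of substance P, rose by 1.02. The hormones Gip, Sst, Nts and Sct fell by 0.75 to 1.63. Gip was at 14.35, 15 and 51.75 CPM against 68.05, 57.35 and 94.4 CPM, and WT30 was the highest at both doses. Without WT5 the calls of Sst (adjusted p = 0.055), Nts (adjusted p = 0.145) and Sct (adjusted p = 0.117) were lost, that of Sst also without WT10 (adjusted p = 0.135) and that of Sct without WT30 (adjusted p = 0.0584). The median of the list was 0.72 in WT30 and -0.04 and 0.06 in WT10 and WT5. Tuft cell markers were higher in 7 of 15 cases, with none lower, at a median of 0.35 (0.18 after scaling). This share of 46.7% was close to the 45.9% of all tested genes that were higher. The median of the tuft list was 0.05, 0.36 and 0.77 in WT10, WT5 and WT30. Pou2f3, the factor required for tuft cells, was at 1.25 to 2.65 against 0.2 to 0.25 CPM (1.14), and Hpgds, a prostaglandin synthase, rose by 1.2. Kctd12 and Trpm5 rose by 0.70 and 0.56, and both calls were lost without WT30 (adjusted p = 0.109 and 0.616) and after scaling, that of Trpm5 also without WT5 (adjusted p = 0.0927). WT30 had the highest value of Kctd12 and Trpm5 at either dose.

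Markers of absorptive enterocytes fell. Of 47 tested genes 38 were lower at 100 ng/ml, 30 of them at least 2-fold, none was higher and 9 did not pass the test, with a median of -1.24 (-1.49 after scaling). Ace, a brush border peptidase, was at 21.4, 25.95 and 6.75 CPM at 100 ng/ml and at 517, 510.5 and 551 CPM at 5 ng/ml (-4.98 ± 0.35 (SE), adjusted p = 5.86e-09, chromosome 11, 105967945 to 105989964, plus strand). WT30 was the lowest of the cultures at the high dose and the highest at the low dose. The peptide transporter Slc15a1 went from 222, 160 and 222 CPM to 13.45, 4.75 and 5.7 CPM (-4.61), the drug-metabolising enzyme Cyp3a25 from 304 to 313 CPM to 13.05 to 20.85 CPM (-4.20), and Krt20, a keratin of mature surface cells, from 257 to 416 CPM to 18.35 to 30.05 CPM (-3.83). Apolipoproteins and other genes of lipid export were among the 38, such as Apoa1 (-3.21) and Apob (-1.24), chosen after the values were seen. The 9 that did not pass included genes of sugar digestion and uptake, named here after their values were seen. Sis, sucrase-isomaltase, was at 3137, 1727 and 3815 CPM against 2147, 2704 and 2393 CPM. Lct, lactase, was at 131, 52.7 and 305 CPM against 32.2, 82.8 and 108 CPM. Mgam, Slc5a1 and Slc2a2 likewise had overlapping groups. In these 5 genes the value at 100 ng/ml was lower than that at 5 ng/ml in WT5 and higher in WT10 and WT30. The summed CPM of the list was 16127 to 23138 at 100 ng/ml and 36192 to 37272 at 5 ng/ml.

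Among the 12 largest falls of all genes, Slc5a4b, a membrane protein of the sodium-glucose cotransporter family, was at 8.25, 6.65 and 4.35 CPM at 100 ng/ml and at 357, 423 and 345 CPM at 5 ng/ml (-5.69 ± 0.20 (SE), adjusted p = 2.63e-11, chromosome 10, 76057494 to 76110961, minus strand), the largest fall among called genes with a mean of at least 5 CPM. Its reads may be shared with the close paralogue Slc5a4a, and those of Cyp3a25 with other Cyp3a genes. Dpep1, a membrane dipeptidase, fell by 4.99, the nucleoside transporter Slc28a1 by 3.91, the sulphate transporter Slc13a1 by 3.74 and the sulphotransferase Gal3st2 by 3.75. Ctrb1, a digestive protease precursor known from the pancreas, went from 88.2, 178 and 243 CPM to 4.05, 13.4 and 14.8 CPM (-3.91). Gm11651 fell by 4.50, but this transcript lies on the opposite strand of Ace and overlaps it, and without strand-specific counting the reads of the pair cannot be told apart. On the other side, Stc2, a secreted glycoprotein, was at 62.4, 42.4 and 50.55 CPM against 3.2, 1.8 and 3.15 CPM (3.84 ± 0.11 (SE), adjusted p = 2.87e-12), and Emp2, a membrane protein, and the long non-coding AU020206 rose by 3.64 and 3.58.

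**Figure D4:**
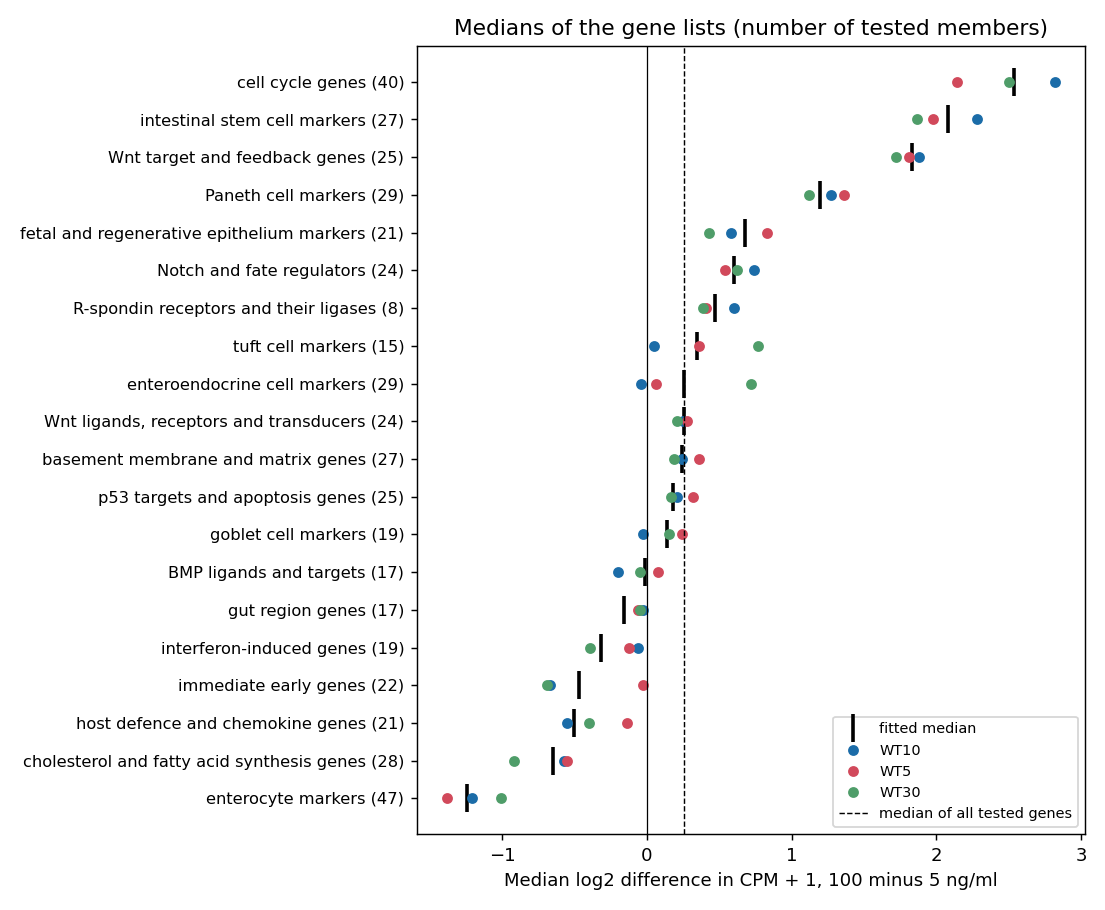
Median log2 difference (x axis, 100 minus 5 ng/ml) of the tested members of 20 gene lists, with the number of tested members in brackets. Points are the 3 WT cultures and bars the fitted medians. Cell cycle, stem cell, Wnt target and Paneth lists lie to the right of the dashed median of all genes (0.26) in each culture, and enterocyte and lipid synthesis lists lie to the left of 0.

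Regulators of cell fate mostly rose. In the list of Notch pathway and fate genes 16 of 24 tested rose and 1 fell, with a median of 0.60. Jag2, a Notch ligand, went from 6.95, 6.55 and 8.45 CPM to 55.5, 45.35 and 61.85 CPM (2.73, adjusted p = 1.71e-10), and Lfng, which modifies Notch receptors, rose by 1.70, Notch2 by 1.47 and the stem cell-associated factor Sox4 by 1.37. Hnf4g, a factor of mature enterocytes, fell by 0.77. Hes1 and Dll1, central to Notch signalling and chosen after the values were seen, did not pass the test (0.06 and -0.01). BMP ligands and targets were split, 7 of 17 higher and 6 lower with a median of -0.01. Bmp7 rose by 2.18, Bmp8b by 1.13 and the decoy receptor Bambi by 0.97, whereas Bmp2, Bmp3, the BMP and TGF-beta feedback gene Smad7 and the TGF-beta target Tgfbi fell by 1.25 to 1.37. The BMP target Id2 rose by 0.95 although the groups overlapped.

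Fetal and regenerative epithelium markers rose in 13 of 21 tested cases and 1 fell, with a median of 0.68. Hmga2, an architectural chromatin protein of fetal tissue, went from 4, 4.65 and 7.7 CPM to 26.9, 23.9 and 24.2 CPM (2.05, adjusted p = 7.89e-08). Anxa3 and Ly6e rose by 1.79 and 1.70, and Msln, mesothelin, by 1.44, a call that was lost without WT10 (adjusted p = 0.0673). Sprr1a, a marker of injured epithelium, fell instead, from 26.7, 3.45 and 21.85 CPM to 0.9, 0.85 and 1.75 CPM (-2.73), and WT5 was the lowest at 5 ng/ml. Among basement membrane and matrix genes 12 of 27 rose and 5 fell, with a median of 0.24. Both shares and the median were close to those of all tested genes (median 0.26), so the list as a whole showed no direction of its own. Its summed CPM was 1128 to 1369 at 100 ng/ml and 1332 to 1549 at 5 ng/ml, lower at 100 ng/ml in each culture. Single members moved further in either direction. The laminin chains Lamb2 and Lama5 rose by 2.5 and 2.48, Lama5 from 37.85, 24.65 and 21.25 CPM to 194, 159 and 122 CPM. Frem2, a basement membrane-associated protein, and Npnt, nephronectin, rose by 2.51 and 2.15. Fbln1, fibulin 1, went from 392, 397 and 321 CPM to 120, 116 and 84.3 CPM (-1.80, adjusted p = 7.40e-10), and Fras1, Nid1 and P4ha1 fell by 0.57 to 1.12. The call of Nid1 was lost without WT5 (adjusted p = 0.0638) or WT30 (adjusted p = 0.0716).

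Lipid synthesis genes fell together with the enterocyte markers. Of 28 tested genes of cholesterol and fatty acid synthesis 24 were lower and 2 higher, with a median of -0.65 (-0.91 after scaling). Scd1, a stearoyl-CoA desaturase, went from 364, 324 and 392 CPM to 81.6, 117 and 69.75 CPM (-2.03, adjusted p = 5.25e-07). Its homologue Scd2 fell by 1.10, the mevalonate pathway enzyme Pmvk by 1.59 and the sterol sensor Insig1 by 1.12. Acly and Acaca, which supply acetyl-CoA and malonyl-CoA to fatty acid synthesis, rose by 0.58 and 0.48, the latter not past the threshold after scaling (adjusted p = 0.0666).

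Genes of host defence were lower in 9 of 21 tested cases and higher in 5, with a median of -0.50. The C-type lectins of the Reg family led the falls. Reg3b was at 16.6, 8.05 and 10.15 CPM at 100 ng/ml and at 330, 365 and 302 CPM at 5 ng/ml (-4.78, adjusted p = 4.88e-10), and Reg3a, Reg1 and Reg3g fell by 1.60 to 2.22, with the caution that Reg3 genes are close paralogues. The chemokine Ccl28 rose by 1.43. Nox1, an epithelial NADPH oxidase, rose by 2.07, but was at 36.35 and 36.1 CPM in WT10 and WT5 and at 4.75 CPM in WT30 at the high dose, against 2.65, 6.55 and 2.9 CPM. Interferon-induced genes were lower in 9 of 19 and higher in 3 cases, with a median of -0.32. Irf7 and B2m, a transcription factor of the interferon response and the light chain of MHC class I, fell by 1.16 and 1.14, while Ifit2 rose by 1.49 from a level under 0.4 CPM.

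Immediate early genes, which respond within minutes to growth factors and stress, fell in 12 of 22 tested cases and rose in 4, with a median of -0.47. The size of the fall differed between cultures. Fos was at 6.7, 8.3 and 6.15 CPM at 100 ng/ml and at 38.1, 11.65 and 26.1 CPM at 5 ng/ml (-1.57, adjusted p = 0.000109), so that WT5 differed little. The median of the list was -0.67 and -0.69 in WT10 and WT30 and -0.03 in WT5. Dusp5, a phosphatase that ends ERK signalling, fell from 214, 157 and 162 CPM to 48.15, 52.3 and 42 CPM (-1.87), whereas Dusp1 and Atf3 fell by 1.48 and 1.32 with WT5 again lowest at 5 ng/ml. Spry4, Nr4a1 and Ier2 rose by 0.70 to 1.17. Targets of p53 and apoptosis genes had no common direction, 12 of 25 higher and 5 lower with a median of 0.18 that became -0.07 after scaling. Their shares of 48% and 20% were close to the 45.9% and 17.2% of all tested genes. Phlda3, Bcl2, Aen and Eda2r rose by 1.43 to 2.39, and Sesn1, Pmaip1 and Fas fell by 0.65 to 1.2. Bcl2, an inhibitor of apoptosis, was at 24.8, 26.7 and 21.9 CPM against 5.4, 3.45 and 4.35 CPM. Cdkn1a, the best-known p53 target, did not pass the test (-0.23, adjusted p = 0.107). Of 17 tested regional genes of the gut, 3 were higher (17.6%) and 5 lower (29.4%), with a median of -0.16. Among all tested genes these shares were 45.9% and 17.2%. The chloride channel Cftr rose by 1.64, the ileal bile acid transporter Slc10a2 fell by 1.29, and the transcription factors Gata4 and Cdx2 did not pass the test (-0.01 and 0.22, chosen after the values were seen).

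Rspo3 was next compared with the other Rspondins, by testing in the same fit whether the difference between the doses was unequal. Against Rspo1, 490 genes had a higher response to Rspo3 (2.68%) and 437 a lower one (2.39%), with 3926 genes at an unadjusted p under 0.05. Cell cycle genes stood out in number: 32 of the 40 had a higher response to Rspo3 and none a lower one, at a median of 2.54 with Rspo3 and 1.12 with Rspo1. The 5 genes with the smallest p were Cdc20, Cdca3, Nek2, Knl1 and Ccnb1, all of which act in mitosis. Ccnb1, cyclin B1, was at 57.1 ± 6.82 CPM at 100 ng/ml and 11.4 ± 2.41 at 5 ng/ml of Rspo3 (SD, n = 3), and at 58.8 and 36.8 CPM with Rspo1, so that the high doses were close and the low doses differed. The difference in response was 1.59 (adjusted p = 0.000220). Axin2 (difference 0.87, adjusted p = 0.331) and Lgr5 (0.52, adjusted p = 0.560) did not pass the test, and Olfm4 did (2.07, adjusted p = 0.0393). These counts rested on the cultures used. Without WT10 they were 28 and 6, without WT5 319 and 319, and without WT30 128 and 57, and the call of Ccnb1 was lost without WT10 (adjusted p = 0.0528).

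Against Rspo2, 4269 genes had a higher response to Rspo3 (23.4%) and 2421 a lower one (13.3%). Cell cycle genes were higher in 38 of 40 cases and lower in none, at a median of 2.54 with Rspo3 and 0.24 with Rspo2. Their summed CPM was 3536 ± 70.7 and 663 ± 142 with Rspo3 at 100 and 5 ng/ml (SD, n = 3), 4217 ± 566 and 1747 ± 172 with Rspo1, and 3852 ± 402 and 2987 ± 312 with Rspo2. At 100 ng/ml the sums of the 3 cultures were 3455 to 3587 with Rspo3, 3612 to 4736 with Rspo1 and 3559 to 4310 with Rspo2, close to each other although those of Rspo3 and Rspo1 did not overlap. At 5 ng/ml they were 524 to 807, 1566 to 1908 and 2757 to 3342, with no overlap between ligands. By the account of the paper, only Rspo2 among these ligands kept all organoids alive at 5 ng/ml. Whether unequal survival contributed to the differences at this dose was not tested. The smallest p values were those of Stc2, Slc5a4b, Slc28a1, Gpt2 and Adm2. Slc5a4b was at 375 ± 42.0 CPM at 5 ng/ml of Rspo3, and at 5.58 CPM at 5 ng/ml of Rspo2 and 5.83 CPM at 100 ng/ml of Rspo2, a difference in response of -5.76 (adjusted p = 5.33e-09). Stc2, at 2.72 CPM at 5 ng/ml of Rspo3, was at 50.7 and 53.35 CPM at 5 and 100 ng/ml of Rspo2 (3.76, adjusted p = 8.98e-10). For 20 of 28 lipid synthesis genes and 17 of 47 enterocyte markers the response to Rspo3 was lower than that to Rspo2. Of 27 stem cell markers, 8 had a higher and 4 a lower response, at medians of 2.08 with Rspo3 and 2.01 with Rspo2. These counts were not far from the shares of all tested genes (23.4% and 13.3%), so they set the list little apart. Without 1 culture the counts ranged from 2807 to 3109 higher and from 1386 to 1967 lower, with 2807 higher without WT5 and 1386 and 1476 lower without WT10 and WT30, and after scaling they were 2802 and 3638. The 5 named genes kept their calls in these settings.

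**Figure D5:**
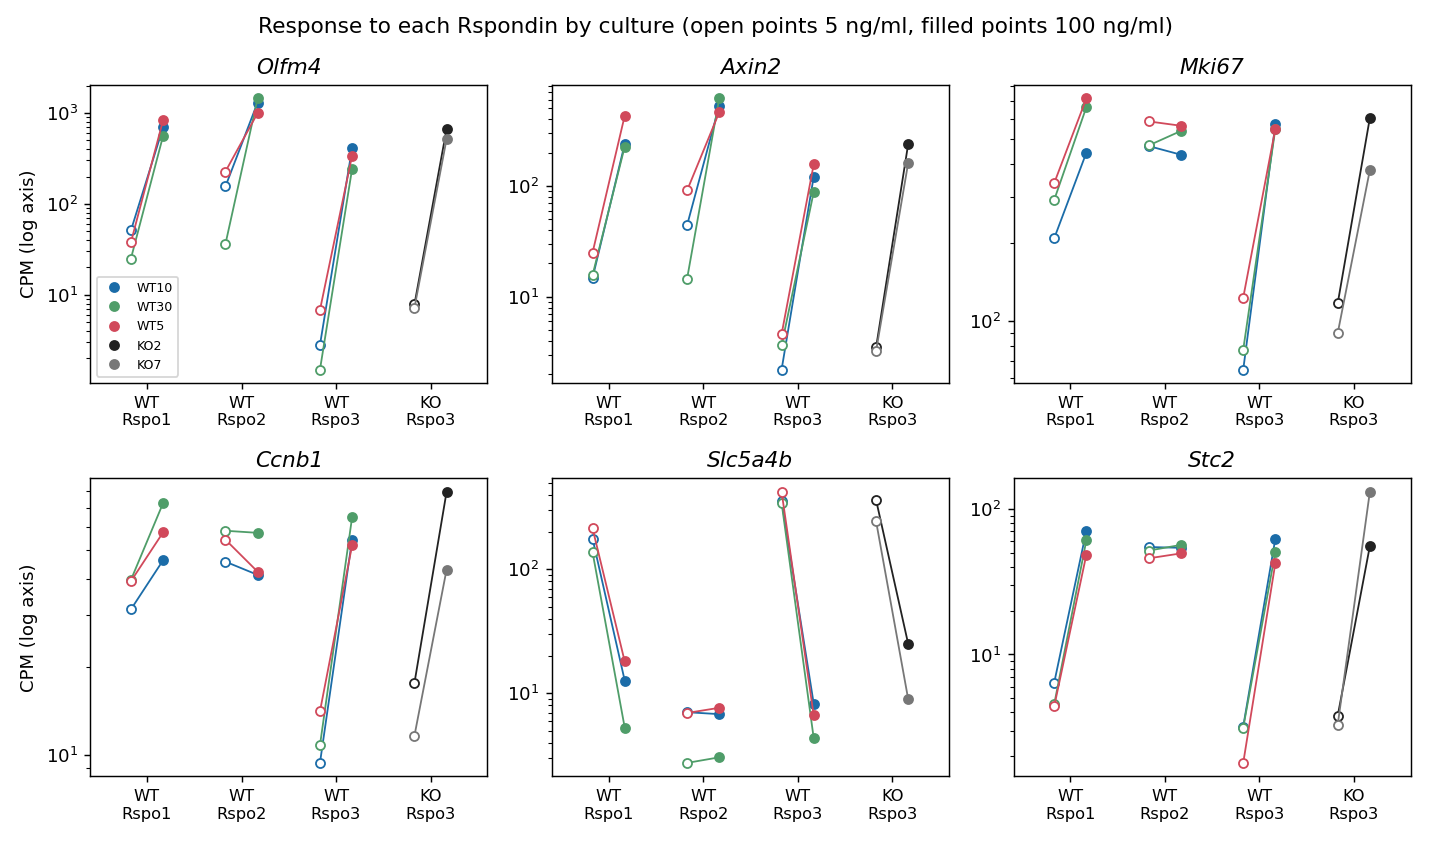
CPM (log axis) of 6 genes in WT cultures given Rspo1, Rspo2 or Rspo3 and in Lgr5 KO cultures given Rspo3, with open points for 5 ng/ml, filled points for 100 ng/ml and a line for each culture. With Rspo2 the lines of Ccnb1, Slc5a4b and Stc2 are nearly flat, and with Rspo3 they run between 11.4 and 57.1, 375 and 6.42, and 2.72 and 51.8 CPM on average.

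The response to Rspo3 was also compared between WT and Lgr5 KO organoids, in a fit of all 30 organoid libraries. In the KO cultures, 7605 genes were higher at 100 ng/ml of Rspo3 and 2929 lower, of 19130 tested. Of the difference between genotypes, limma called 0 genes with a higher response in WT and 1 with a lower one (0% and 0.00523%), with 1209 genes at an unadjusted p under 0.05. The gene called, Gm29587, was at 0.1 to 0.35 CPM in WT at 100 ng/ml and 2.13 CPM on average in KO (-1.11, adjusted p = 0.0451). Without WT10, WT30 or KO7 no gene was called, without WT5 there were 5 lower, Gm29587 not among them (adjusted p = 0.0642), and without KO2 there were 27 higher and 97 lower. Lgr5 itself was at 46.3 and 0.467 CPM in WT and at 38.2 and 0.225 CPM in KO at 100 and 5 ng/ml of Rspo3. Reads of a disrupted Lgr5 allele count towards the gene as well, so that this total does not check the KO label. Olfm4 had a log2 difference of 6.27 in WT and 6.11 in KO, Mki67 went from 88.2 to 556 CPM in WT and from 103 to 493 CPM in KO, and the cell cycle list had medians of 2.54 and 2.29. With 2 KO cultures the standard error of the difference had a median of 0.22 on the log2 scale. The KO cultures had the Y-linked Ddx3y at 55 to 73.5 CPM and the WT cultures at 0 to 0.45 CPM, so that genotype and sex of the embryos cannot be told apart.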

How the data were processed

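Organoid RNA was extracted, depleted of ribosomal RNA and sequenced. Per the labels, reads were trimmed with Trimmomatic 0.36, mapped to GRCm38.p4 with STAR 2.5.3a and counted with HTSeq 0.9.1, and the authors deposited CPM for 52636 genes, rounded up to the next 0.05. Whether counting used strand is not given in the sources used here. The sorted-cell table was not used. Read depths were recovered from the CPM steps (error up to 1.81% in 7 simulated tables). Genes that reached 1 CPM in 3 or more WT libraries (2 or more of all organoid libraries for the genotype comparison) were fitted with limma 3.58.1 in R 4.3.3 on log2(CPM + 1), with group and culture as terms and a variance trend. The labels number the cultures, and deviations of same-numbered libraries from their dose means correlated at 0.494 to 0.680 in the 3 pairs, so culture was kept as a block. The fit was tested on simulated data. Lists were typed from general knowledge, and members, lists and tests were chosen with earlier results of these data known. Named genes were 10 preset genes, up to 4 called rises and 4 falls per list, the 12 largest rises and falls at a mean of 5 CPM or more, and the 5 smallest adjusted p of each difference. A gene that this rule names is not reported here. Gene coordinates are from GENCODE M21. Alternatives were a pseudocount of 0.1, other filters, median-ratio scaling, no block, other sets of libraries and each culture left out.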

Additional observations from a re-analysis of the deposited data

Results flagged for a closer look

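Responses that differed between ligands or genotypes are given with the log2 difference of the 2 responses. Against Rspo1, the response to Rspo3 was larger by 1.56 for Cdc20, 1.54 for Cdca3, 1.62 for Nek2, 1.24 for Knl1 and 1.59 for Ccnb1. Against Rspo2, it was larger by 3.76 for Stc2, 2.26 for Gpt2 and 3.56 for Adm2, and the values for Slc5a4b and Slc28a1 were -5.76 and -3.77. Between WT and KO, Gm29587 had a difference of -1.11. These genes were picked by the smallest adjusted p of the same interaction tests in limma, so passing them is no separate support. In these tests the call of Gm29587 was lost at a pseudocount of 0.1 (adjusted p = 0.542) and without the block (adjusted p = 0.75). It was also lost without any 1 of the WT cultures, and that of Ccnb1 was lost without WT10 (adjusted p = 0.0528).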

How the results depend on the processing

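The Rspo3 dose response kept both directions in every setting tried. Requiring a mean of 10 CPM left 5230 genes higher, scaling gave 4990 lower, a 2-fold minimum gave 2294 and 829, an FDR of 0.001 gave 5098 and 1809, and leaving out a culture gave 6753 to 7491 higher and 2517 to 2758 lower. Without the replicate block there were 7187 higher and 2629 lower. For Rspo3 against Rspo1, testing every gene with a nonzero library gave 282 and 222, a mean of 10 CPM 269 lower, no replicate block 167 and 62, and leaving out a culture 28 to 319 and 6 to 319. For Rspo3 against Rspo2, a mean of 10 CPM gave 1247 lower, scaling 2802 and 3638, no replicate block 1490 lower, and leaving out a culture 2807 to 3109 and 1386 to 1967. For WT against KO, a pseudocount of 0.1, a mean of 10 CPM or no replicate block gave 0 lower, every nonzero gene 2 higher, scaling 1 higher, and leaving out a WT culture 0 to 0 higher and 0 to 5 lower. Leaving out a KO culture, chosen after seeing the data, gave 0 to 27 and 0 to 97. List medians that changed side were those of the receptors (0, every nonzero gene), matrix (-0.03, mean of 10 CPM), goblet (-0.09) and p53 genes (-0.07, both by scaling), and BMP genes (0.03 without WT10, 0.01 without WT30, against -0.15 without WT5). Of the values of named genes under an alternative, 1414 kept their call and 73 lost it, with none reversed. The cause of these changes was not tested. The labels do not tell separate isolations within a culture. The dose response and the comparisons between ligands are limited by 3 WT cultures, and the comparison between genotypes by 5 cultures.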

Other observations

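Gene families picked by their symbols after the values were seen are described here by counts. Genes of protein synthesis were higher at 100 ng/ml of Rspo3 in WT organoids. All 17 cytosolic aminoacyl-tRNA synthetase genes rose, 10 of them at least 2-fold, with a median of 1.05 (0.79 after scaling), and so did 13 of 15 mitochondrial ones (median 0.67). Of 76 cytosolic ribosomal protein genes 65 rose and none fell, with a median of 0.60 that was 0.34 after scaling. Host genes of small nucleolar RNAs rose in 13 of 14 cases (median 1.17), and of 239 small nucleolar RNAs 147 rose and 2 fell. Single genes outside these families were also picked after the values were seen. Asns, asparagine synthetase, was at 177, 154 and 192 CPM at 100 ng/ml against 46.65, 36.05 and 55.95 CPM, and Atf5, Chac1 and Gdf15 rose by 2.27, 2.22 and 2.88.

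Genes of xenobiotic metabolism were lower. Of 50 cytochrome P450 genes 37 fell, 28 of them at least 2-fold, and 7 rose, with a median of -1.23. Cyp3a11 was at 114, 74 and 66.65 CPM at 100 ng/ml against 1112, 1165 and 1025 CPM. All 17 tested UDP-glucuronosyltransferase genes fell (median -0.97), although Ugt1a genes share exons and are not independent. Respiratory complex I subunits gave 2 higher and 1 lower of 36, with a median of -0.08 that was -0.34 after scaling. Among claudins, the tight junction proteins, Cldn8 went from 1.45 to 1.75 CPM to 18.25 to 38.3 CPM (3.39), and Cldn23 and Cldn3 fell by 2.22 and 1.37.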
